A study of Mus musculus with 9 samples.

Results

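The mitochondrial ribosomal protein genes are the nuclear genes for the proteins of the ribosome inside mitochondria. They were taken here as the genes whose symbol in the deposited result tables is Mrpl or Mrps, followed by a number and at most a letter a, b or c. The rule found 78 genes of the 54838 in the count files, 29 named for the small subunit (Mrps) and 49 named for the large subunit (Mrpl). The rule used no measured value. The series asked how hypochlorous acid (HOCl), the oxidant that myeloperoxidase of neutrophils makes, changes transcripts of melanoma cells and of T cells. B16F10 is a pigmented melanoma line of C57BL/6 mice, and these cells were grown for 4 days from seeding. It gave 3 libraries after 5 h in medium with 600 µM HOCl and 3 libraries after 5 h in medium alone. CD8+ T cells, prepared with an isolation kit from spleens of adult C57BL/6 mice, gave 1 library with 600 µM HOCl and 2 without, also after 5 h. Every B16F10 library is of this 1 line, the mice behind each T cell library are not named, and nothing says that replicates were separate cultures or mice. The p-values therefore cover the spread among these libraries alone, and that spread may be technical.

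The mitochondrial ribosome translates the messenger RNAs of mitochondrial DNA, which encode core subunits of the respiratory chain and of ATP synthase. Its ribosomal RNAs come from mitochondrial DNA, while all of its proteins are encoded in the nucleus, made in the cytosol and imported. The small subunit holds the decoding site, and the large subunit holds the peptidyl transferase centre. Symbols do not always match the place in the ribosome: the proteins of Mrps18a and Mrps30 sit in the large subunit, and the protein of Mrps36 belongs to the 2-oxoglutarate dehydrogenase complex. Mrpl58, formerly Ict1, encodes a peptidyl hydrolase that is built into the large subunit.

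Depth was 45.9 to 61.3 M gene counts in B16F10 libraries. The untreated T cell libraries held 49.9 and 52.1 M, and the T cell HOCl library 12.8 M. Melanocyte markers summed to 24046 to 25084 counts per M (CPM) in B16F10 HOCl libraries and 24720 to 24966 CPM in untreated B16F10, against 25.6 and 101 CPM in untreated T cells. The 7 CD8 T cell markers summed to 2574 and 2632 CPM in untreated T cells. The library labelled T cell HOCl went partly against its label: its melanocyte markers summed to 6712 CPM, its CD8 markers to 517 CPM, and transcripts of mitochondrial DNA took 37.4% of its counts, where the untreated T cell libraries had 1.55% and 2.11%. In B16F10 HOCl replicate 3 the CD8 markers summed to 24.4 CPM, against 4.25 to 5.31 CPM in untreated B16F10. The 2 untreated T cell libraries differed from each other far more than B16F10 replicates did, with a chi-square per degree of freedom of 447, against 3.91 to 25.9 in B16F10. Within untreated B16F10, replicate 1 stood apart, with 25.9 and 23.6 against the other two libraries, which gave 4.74 between them.

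The genes were spread over 17 chromosomes, with 11 on chromosome 11 and 8 on chromosome 17 (GENCODE M21 on GRCm38, the mm10 assembly). Of the 78, 33 (42.3%) had a protein-coding neighbour that starts on the opposite strand within 1000 bases, against 2384 of 21998 protein-coding genes (10.8%). Mrpl46 and Mrps11 are such neighbours of each other on chromosome 7. RefSeq promoter windows, 250 bases before to 50 after the start (GRCm38.p6), were found for 69 members and 16514 protein-coding genes. These were searched on both strands for letters bound by factors known to act on nuclear genes of mitochondria. The ETS letters CCGGAAG, bound by GABP (NRF-2), were in 24 of the 69 windows (34.8%), against 12.3% of all windows. The NRF1 core GCGCATGC was in 8 (11.6%), against 3.77%, and the YY1 letters AAGATGGCG were in 8 (11.6%), against 2.03%. The E-box CACGTG, bound by MYC and other factors, was in 5 (7.25%), against 8.09%. The CRE letters TGACGTCA were in 2 (2.90%), against 2.42%, and the ATF4 element TGATGNAA was in 0, against 3.52%. At least 1 of the NRF1, ETS and YY1 letters was in 34 windows (49.3%), against 16.9%. A match describes the letters and is not a bound site. Of the 69 windows, 46 had the RefSeq start within 50 bases of the GENCODE start.

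The windows of Mrpl18, Mrps12, Mrpl42 and Mrpl20 are shown because these genes are among the 9 with the largest called changes under HOCl and hold one of the searched motifs, which is in capitals. Mrpl18 lies at chr17:12916042-12916341 on the minus strand, with ETS letters at -240 to -234, where 1 is the first transcribed base. Mrps12 lies at chr7:28741772-28742071 on the minus strand, with ETS letters at 2 to 8. Mrpl42 lies at chr10:95501900-95502199 on the minus strand, with the YY1 letters at 28 to 36. Mrpl20 lies at chr4:155802628-155802927 on the plus strand, with an E-box at -33 to -28. In Mrpl18 the GENCODE gene begins 254 bases further upstream than the RefSeq start, so its ETS letters lie inside the GENCODE gene. Each window is written 5′ to 3′ on the strand of its gene.
Mrpl18: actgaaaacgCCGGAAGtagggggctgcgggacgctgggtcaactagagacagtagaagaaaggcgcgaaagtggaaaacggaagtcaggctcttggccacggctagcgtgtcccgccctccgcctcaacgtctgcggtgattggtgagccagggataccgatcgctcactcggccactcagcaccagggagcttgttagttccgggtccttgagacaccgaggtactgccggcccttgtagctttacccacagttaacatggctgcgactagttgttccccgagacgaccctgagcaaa
Mrps12: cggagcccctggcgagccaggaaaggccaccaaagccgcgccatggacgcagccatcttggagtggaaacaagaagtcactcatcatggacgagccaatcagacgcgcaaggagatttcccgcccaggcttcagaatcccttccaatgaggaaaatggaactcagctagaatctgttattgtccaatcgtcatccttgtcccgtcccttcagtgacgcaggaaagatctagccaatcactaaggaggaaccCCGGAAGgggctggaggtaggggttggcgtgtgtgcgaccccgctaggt
Mrpl42: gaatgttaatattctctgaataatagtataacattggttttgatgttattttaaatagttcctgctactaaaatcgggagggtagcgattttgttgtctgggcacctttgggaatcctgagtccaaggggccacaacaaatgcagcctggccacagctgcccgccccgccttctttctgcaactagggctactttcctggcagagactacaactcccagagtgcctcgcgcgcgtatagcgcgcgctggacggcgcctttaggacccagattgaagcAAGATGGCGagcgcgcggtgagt
Mrpl20: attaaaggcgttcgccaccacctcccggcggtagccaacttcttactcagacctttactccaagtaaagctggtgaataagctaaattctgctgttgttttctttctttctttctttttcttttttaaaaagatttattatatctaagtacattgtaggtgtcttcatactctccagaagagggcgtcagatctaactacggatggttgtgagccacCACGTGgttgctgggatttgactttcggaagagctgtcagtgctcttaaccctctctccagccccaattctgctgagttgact
Of the other 5 genes with the largest called changes, Mrps2, Mrpl12, Mrpl41 and Mrpl55 had a window in the table and none of the 6 searched motifs in it.

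In B16F10 cells given HOCl, 27 of the 77 members tested fell and 1, Mrps2, rose at an adjusted p under 0.05 (edgeR's quasi-likelihood test, adjusted over all 16082 genes tested). Among all genes tested, 13.5% were lower and 14.7% higher, so the share of members that fell (35.1%) was above the share of all genes and the share that rose (1.30%) below it. The changes were small. The median member stood at -0.15 on the log2 scale against -0.0077 for all genes tested, 69 of 77 members had a negative estimate, and no called fall exceeded that of Mrpl18, -0.52. In 35 members all 3 HOCl libraries lay below all 3 untreated libraries, and 26 of these were among the 27 that fell. That is 45.5% of members, against 18.4% of all genes tested. In 2 members, Mrps2 and Mrpl38, all HOCl libraries lay above, which is 2.60% of members, against 25.2% of all genes tested. Less RNA of a gene per cell and a smaller share of cells that make it cannot be told apart in bulk RNA.

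**Figure D1:**
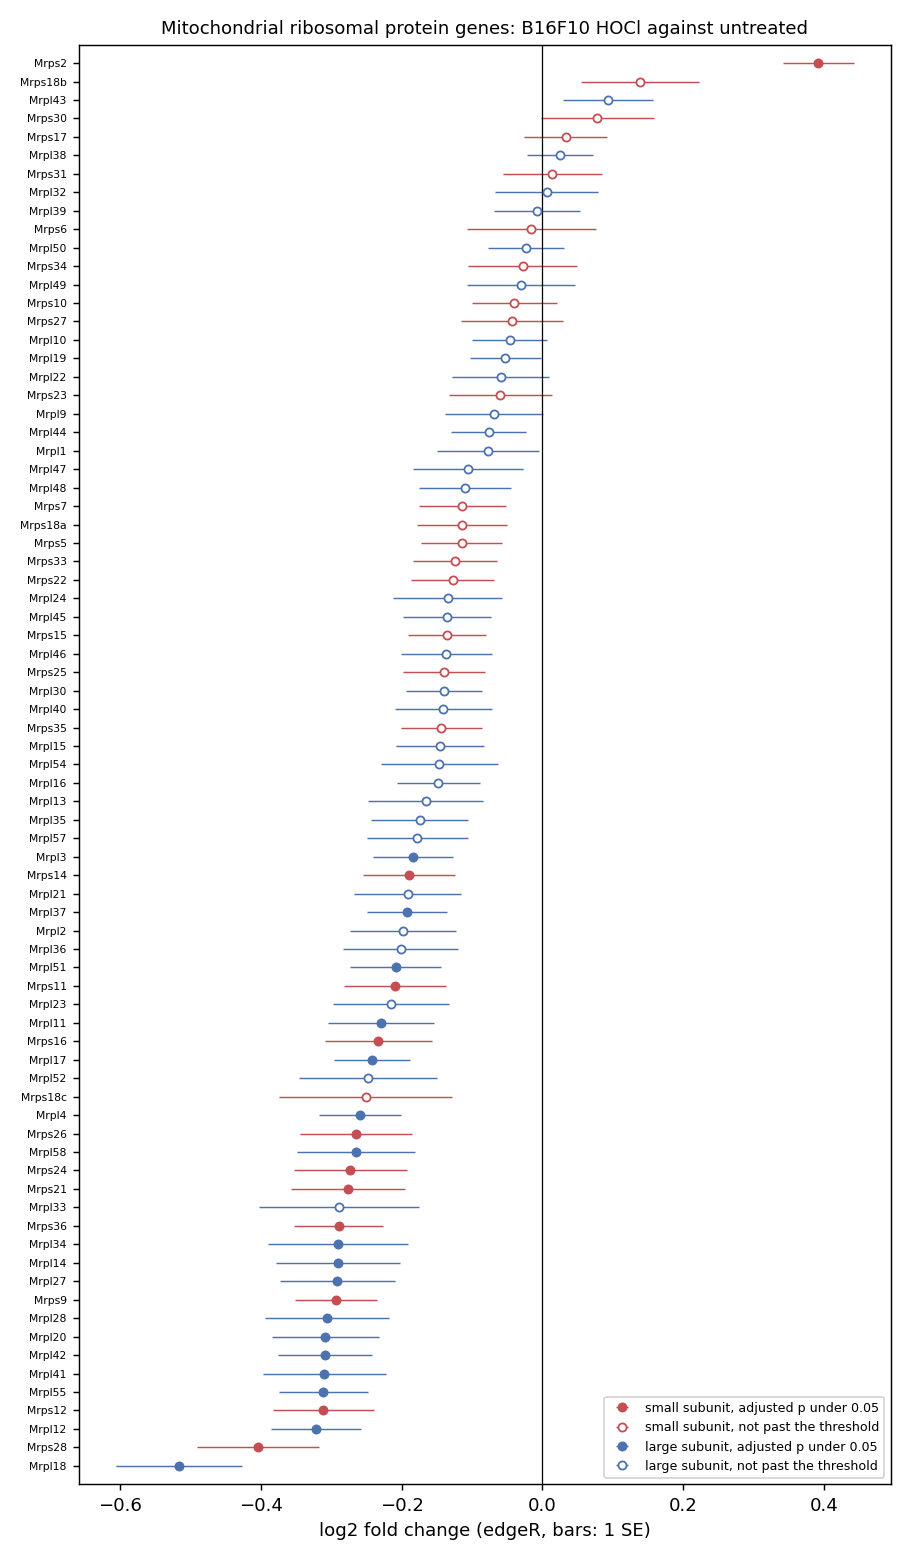
Log2 fold change of the 77 tested mitochondrial ribosomal protein genes in B16F10 cells, HOCl over untreated (x axis), ranked down the page, with bars of 1 SE from edgeR; colour gives the subunit by symbol and filled points passed an adjusted p of 0.05. The points run from 0.39 for Mrps2 to -0.52 for Mrpl18, with 69 of 77 left of 0.

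Falls were called in both subunits. Of the 29 small-subunit genes 10 fell and 1 rose, with a median log2 fold change of -0.13. Of the 48 large-subunit genes tested 17 fell and 0 rose, with a median of -0.18. None of the large-subunit genes was higher at an unadjusted p under 0.05 or with DESeq2 either, and 28 of them were lower at the unadjusted level. Of all 16082 genes tested with edgeR, 3223 were higher and 3071 lower at that level. Summed over length-normalised levels (transcripts per M, TPM), small-subunit genes reached 1983, 1980 and 1921 TPM in HOCl libraries and 2191, 2024 and 2019 TPM in untreated libraries. Large-subunit genes reached 4006, 3964 and 3849 TPM with HOCl and 4547, 4122 and 4176 TPM without. The HOCl libraries lay below the untreated libraries in both sums. The ratio of the large to the small sum was 2.02, 2.00 and 2.00 with HOCl and 2.08, 2.04 and 2.07 without, so the HOCl ratios all lay below the untreated ones.

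Mrps2, a core protein of the small subunit with a bacterial counterpart, had 91.3, 95.8 and 92.4 CPM in HOCl libraries and 71.5, 70.3 and 67.3 CPM in untreated libraries. The groups did not overlap, and the log2 fold change was 0.39 ± 0.050 (SE, adjusted p = 0.000182, edgeR). Its call held in each of the 6 fits that left out 1 library. Mrps2 lies on chromosome 2 at bases 28468066 to 28471178 and shares no exon base with another gene.

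Mrps28, another small-subunit protein, had 19.3, 17.9 and 17.4 CPM with HOCl and 26.3, 21.2 and 23.2 CPM without. All HOCl libraries were lower, at a log2 fold change of -0.40 ± 0.087 (SE, adjusted p = 0.00468, edgeR). Mrps12, whose bacterial counterpart lines the decoding centre, had 35.7, 36.4 and 34.8 CPM with HOCl and 48.1, 40.7 and 41.2 CPM without. That was a fall of 0.31 on the log2 scale, again without overlap (adjusted p = 0.00674, edgeR). Mrps36, the 2-oxoglutarate dehydrogenase protein that carries a ribosomal name, had 21.3, 22.1 and 20.8 CPM with HOCl and 25.8, 26.2 and 24.9 CPM without. It fell by 0.29 (adjusted p = 0.00534, edgeR), and its untreated replicate 1 was not the highest of its group. Pseudogenes of Mrps36 (Mrps36-ps1 and others) are annotated, and how reads shared with them were counted is not given in the sources used here.

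The Mrps18 paralogues, related proteins that occupy different places in the ribosome, did not pass the test. Mrps18a, of the large subunit by place, had 45.7, 46.3 and 45.4 CPM with HOCl and 52.9, 47.0 and 45.9 CPM without, at -0.11 ± 0.064 (log2, SE). Mrps18b had 18.7, 16.4 and 19.0 CPM with HOCl and 16.8, 14.8 and 16.7 CPM without, at 0.14 ± 0.084. Mrps18c, the paralogue that takes the place of the bacterial protein, had 8.63, 10.0 and 8.98 CPM with HOCl and 12.6, 10.7 and 8.87 CPM without, at -0.25 ± 0.12. In all 3 paralogues the groups overlapped. Mrps30, the other large-subunit protein with a small-subunit name, was at 0.08 ± 0.080, with an adjusted p of 0.508 (edgeR).

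In the large subunit, Mrpl18, from a family whose bacterial member binds ribosomal RNA, had the steepest fall among the members. It had 37.3, 36.3 and 36.2 CPM in HOCl libraries and 60.0, 47.9 and 45.9 CPM in untreated libraries. The groups did not overlap, and the log2 fold change was -0.52 ± 0.089 (SE, adjusted p = 0.00134, edgeR). Its neighbour Tcp1, which starts within 1000 bases on the other strand, was at -0.08 with an adjusted p of 0.236 (edgeR).

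Mrpl12, the protein of the ribosomal stalk that contacts translation factors, had 83.2, 84.3 and 77.6 CPM with HOCl and 108, 93.3 and 98.8 CPM without. The fall was 0.32 on the log2 scale, and the lowest untreated library stood above the highest HOCl library (adjusted p = 0.0028, edgeR). Mrpl20, a protein with a bacterial counterpart, had 46.8, 45.2 and 42.5 CPM with HOCl and 61.1, 51.3 and 50.9 CPM without. Its fall was 0.31 without overlap (adjusted p = 0.00982, edgeR).

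Mrpl41, Mrpl42 and Mrpl55 encode proteins found in mitochondrial ribosomes and not in bacterial ones. Mrpl42 had 71.3, 77.6 and 68.0 CPM with HOCl and 94.4, 82.9 and 86.1 CPM without. Mrpl55 had 27.04, 27.9 and 28.0 CPM with HOCl and 35.6, 31.9 and 33.2 CPM without. Mrpl41 had 28.7, 27.2 and 27.5 CPM with HOCl and 38.9, 30.2 and 32.2 CPM without. Each fell by 0.31 on the log2 scale with no overlap of groups, with adjusted p values of 0.00463, 0.00341 and 0.0194 in that order (edgeR). In all 3 genes untreated replicate 1 was the highest library.

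**Figure D2:**
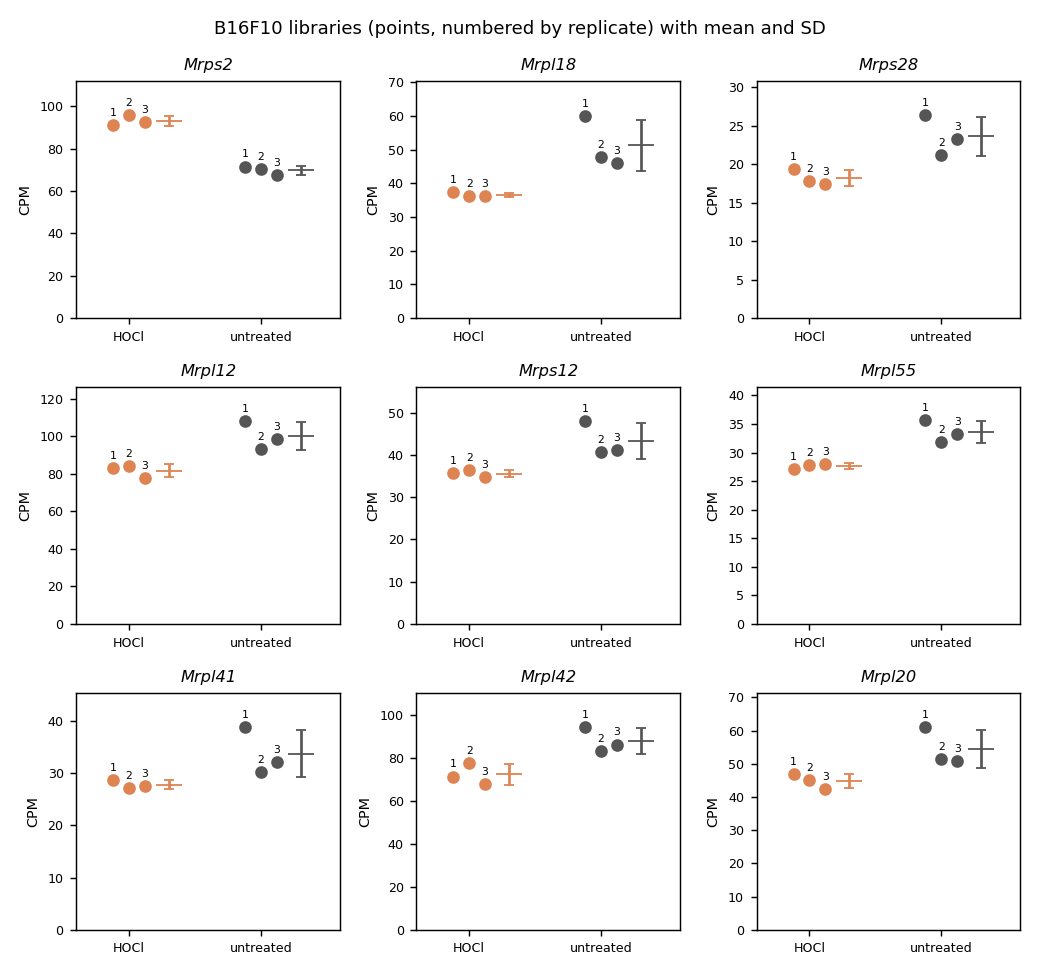
Counts per M (y axis, from 0) of the 9 members with the largest called changes in B16F10 cells, HOCl left and untreated right; points are libraries with their replicate number, and the bar beside them gives mean and SD. The HOCl points of Mrps2 lie above all untreated points, and those of the other 8 genes lie below.

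Untreated replicate 1 stood high for these genes. In 72 of the 77 members tested it was the highest untreated library, and no such count over all genes is given here. Its median member stood 0.11 above the group mean on the log2 scale, while its median over all genes tested was -0.0012. Across all genes tested, and not the members alone, its deviation from the group fell with exon length (Spearman's rho -0.40, as a description). The other untreated libraries had 0.28 and 0.28 and the HOCl libraries -0.16, -0.096 and 0.22. Without untreated replicate 1, 22 members fell and 3 rose, the added ones being Mrpl43 and Mrps30. Their median was then -0.09 over all members tested, against -8.6e-05 over all genes tested. All 22 were among the 27, and 35 members (45.5%) had all HOCl libraries below the remaining 2 untreated ones, against 24.0% of all genes tested. Leaving out HOCl replicate 1, 2 or 3 left 15, 13 and 10 members that fell. The shares of all genes called in the fits with 1 library left out are not given here.

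Members were also set side by side by exon length. Among the 26 tested members with at most 1675 exon bases, 14 fell and the median log2 fold change was -0.27, against -0.13 and 20.7% lower among all 1079 tested protein-coding genes of that length. Among the 25 members of 1676 to 3318 bases, 5 (20%) fell and 1 rose, with a median of -0.13, against 18.9% lower and -0.05 among protein-coding genes of that length, so the share was near that of other genes. Among the 26 longest, 8 (30.8%) fell, with a median of -0.14, against 14.9% lower and 0.03 among protein-coding genes of at least 3319 bases. Across the 77 members, fold change and exon length had a rank correlation of 0.31, and across 12697 protein-coding genes 0.15, both descriptions over genes of the same libraries. Without untreated replicate 1, 13 of the 26 shortest members fell, with a median of -0.16. In that fit 1 of the 25 in the middle fell, with a median of -0.05, and 8 of the 26 longest, with a median of -0.08. Values of other protein-coding genes of these lengths in that fit are not given here. The part of length and of this library in the result was not tested.

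Of the 27 falls, 10 held in every fit that left out 1 library: Mrps9, Mrps12, Mrps28, Mrps36, Mrpl4, Mrpl12, Mrpl17, Mrpl18, Mrpl42 and Mrpl55. In a fit of all 9 libraries, in which T cell libraries share the estimate of spread, 0 members passed with edgeR and 3 were lower at an unadjusted p under 0.05, and 11 genes of any kind were called higher and 26 lower, against 2366 and 2178 in the fit of B16F10 alone. Against a 1.5-fold change (edgeR's glmTreat), 0 members passed, also at an unadjusted p under 0.05. Few genes of any kind did: of all 16082 tested, 28 were called higher and 45 lower. At the unadjusted level glmTreat had 242 higher and 236 lower, so 0 members says little about the members in particular. In the authors' deposited table for B16F10, 27 members were negative and 1 was positive past an adjusted p of 0.05, and 25 and 1 of these had the same call here.

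By length-normalised level, Mrpl12 was the highest member in untreated B16F10, with 193, 196 and 183 TPM in HOCl libraries and 239, 217 and 230 TPM in untreated libraries. Mrps24, a small-subunit protein, had 196, 188 and 180 TPM with HOCl and 240, 204 and 206 TPM without. Mrps23 had 211, 218 and 209 TPM with HOCl and 232, 204 and 199 TPM without. These 3 untreated levels, 228 ± 11, 217 ± 20.1 and 212 ± 17.5 TPM (SD, n = 3 each), overlap one another. Mrps24 fell with HOCl (log2 -0.27, adjusted p = 0.0247, edgeR) and Mrps23 did not pass (log2 -0.06, adjusted p = 0.588, edgeR).

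The lowest were Mrpl53, Mrps30 and Mrpl33. Mrpl33 had 13.2, 12.9 and 13.6 TPM with HOCl and 18.3, 14.5 and 13.5 TPM without. Mrps30 had 14.9, 15.8 and 15.0 TPM with HOCl and 15.0, 13.4 and 13.0 TPM without. The groups overlapped on this scale in both. Mrpl53 was the only member not tested: it had 2 counts in HOCl replicate 1, 3 counts in untreated T cell replicate 1 and 0 in the other 7 libraries. Other genes share 88.0% of its exon bases, and the largest overlap is with Gm42688 on the same strand. Reads over such bases may not have been assigned to either gene, which the sources used here do not say.

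Other genes of mitochondrial translation did not all move with the ribosomal proteins. Of 26 assembly factors 9 rose and 2 fell, with a median log2 fold change of 0.16. Mterf4, which acts with Nsun4 in large-subunit assembly, had 20.7 ± 0.874 CPM with HOCl and 14.3 ± 0.770 CPM without (SD, n = 3 each), a log2 fold change of 0.51 (adjusted p = 0.000405, edgeR). Ybey, an endoribonuclease that acts with the small subunit, had 9.26 ± 0.251 CPM with HOCl and 6.30 ± 0.198 CPM without, a change of 0.53. Ndufab1, the acyl carrier protein, and Mtg1, a GTPase of the large subunit, fell by 0.26 and 0.25. Of 14 translation factors tested 5 fell and 1 rose. Tsfm, the elongation factor Ts, had 33.8 ± 1.02 CPM with HOCl and 42.6 ± 4.36 CPM without, a fall of 0.36, and Tufm, the elongation factor Tu, fell by 0.24. The other 3 that fell, named after their values were seen, were Lrpprc at -0.19, Gfm1 at -0.19 and Guf1 at -0.17. Mtif3, an initiation factor, rose by 0.29 (adjusted p = 0.034, edgeR).

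Of 10 genes of mitochondrial DNA transcription and RNA processing 3 rose and 1 fell. Tefm, the mitochondrial transcription elongation factor, had 28.8 ± 1.09 CPM with HOCl and 18.2 ± 1.29 CPM without (SD, n = 3 each), a log2 fold change of 0.63 (adjusted p = 8.7e-05, edgeR). Trmt10c, a subunit of mitochondrial RNase P, rose by 0.30, and Pnpt1, a polynucleotide phosphorylase, fell by 0.28. The other that rose was Tfb2m, a transcription initiation factor, at 0.30. The ribosomal RNA mt-Rnr2 rose by 0.21, and mt-Rnr1 had a log2 fold change of -0.18 that did not pass. Of the 13 mitochondrial messenger RNAs 0 passed with edgeR and 0 with DESeq2, and 2 were lower at an unadjusted p under 0.05 with edgeR. At that level 3071 of all 16082 genes tested were lower. Of 9 regulators of nuclear genes of mitochondria, Ppargc1a (PGC-1alpha) and Gabpa, the subunit of GABP that binds DNA, rose by 0.57 and 0.30 and Myc fell by 0.33. Yy1 also rose, by 0.19. Tfb2m and Yy1 were named after their values were seen.

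Among cytosolic ribosomal protein genes 3 of 78 fell, 0 rose, and the median log2 fold change was -0.13. DESeq2 called 14 of them lower and 0 higher, and edgeR had 21 lower and 0 higher at an unadjusted p under 0.05. Of all 16082 genes tested, edgeR had 3071 lower and 3223 higher at that level. Rpl27 and Rps13 fell by 0.16 and 0.23. Of 79 nuclear-encoded respiratory chain genes tested, 25 fell and 0 rose, with a median of -0.18, and 49 were lower and 0 higher at an unadjusted p under 0.05. Uqcrfs1, the Rieske iron-sulphur protein, had 84.6 ± 2.40 CPM with HOCl and 102 ± 10.2 CPM without, a fall of 0.29, and Ndufs7 of complex I fell by 0.34. Of the 5 ribosomal proteins with other symbols, such as Ptcd3 and Dap3, 0 passed with edgeR and 1 was lower with DESeq2, and 3 were lower at an unadjusted p under 0.05.

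**Figure D3:**
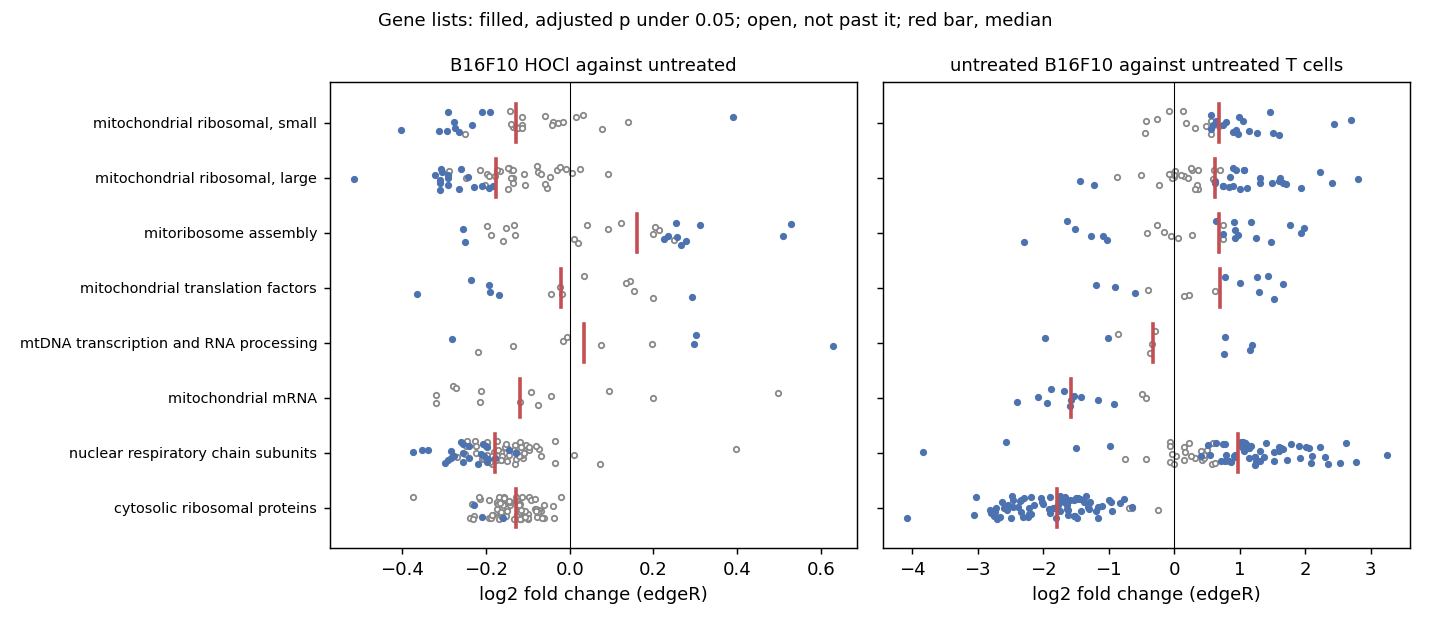
Log2 fold changes (x axes, edgeR) of the member genes by subunit and of 6 other gene lists, HOCl over untreated B16F10 on the left and untreated B16F10 over untreated T cells on the right; filled points passed an adjusted p of 0.05 and red bars are medians. Under HOCl the medians of both subunits, -0.13 and -0.18, lie near those of cytosolic ribosomal proteins and respiratory chain genes, while between the cell types the cytosolic ribosomal proteins (median -1.79) lie on the other side of 0 from the members.

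Between the cell types, 42 of 77 members were higher in untreated B16F10 than in untreated T cells and 2 were lower at an adjusted p under 0.05 (edgeR, adjusted over 18352 genes tested). Among all genes tested, 35.8% were higher and 35.4% lower, against 54.5% and 2.60% of members. The median member stood at 0.65 on the log2 scale and all genes at -0.02. With library totals in place of TMM scaling the median of all genes moved to 0.22 and that of members to 0.90, so that members stood 0.66 above all genes with TMM and 0.67 without. Of the small-subunit genes 18 of 29 were higher and 0 lower, with a median of 0.69. DESeq2 called 16 higher and 0 lower, and edgeR had 0 lower at an unadjusted p under 0.05. At that level edgeR had 6746 of all 18352 genes tested lower. Of the large-subunit genes 24 of 48 were higher and 2 lower, with a median of 0.62. In 60 members (77.9%) all B16F10 libraries lay above both T cell libraries, and in 2 (2.60%) all lay below, against 46.0% and 35.8% of all genes tested.

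The number of calls moved with the library left out. T cell replicate 1 lay below replicate 2 in 71 of 77 members, and no such count over all genes is given here. The members summed to 1728 and 2599 CPM in T cell replicates 1 and 2, against 4363, 3842 and 3848 CPM in untreated B16F10. A fit without 1 T cell library takes its spread from the B16F10 libraries and assumes that the lone T cell library varies like them. Without T cell replicate 1, the median log2 difference of members was 0.40, against 0.11 for all genes tested. Without T cell replicate 2, the median of members was 1.04, against 0.03 for all genes tested. Leaving out B16F10 replicate 1, 2 or 3 left 18, 23 and 23 members higher and 1 lower in each case. Shares of all genes called in these fits are not given here, so the counts cannot be set against genes at large. In the 3 fits that kept both T cell libraries, 18 of the 42 higher calls and 1 of the 2 lower calls, that of Mrpl24, held throughout.

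Mrpl51, a protein of mitochondrial ribosomes without a bacterial counterpart, had 208, 183 and 183 CPM in B16F10 and 19.6 and 26.0 CPM in T cells. The log2 difference was 2.81 ± 0.22 (SE, adjusted p = 0.000132, edgeR), the highest among the members. Its neighbour Ncapd2, a condensin subunit whose start lies 100 bases away on the other strand, was at 2.04 (adjusted p = 0.000693, edgeR). Mrps2 had 71.5, 70.3 and 67.3 CPM in B16F10 and 7.03 and 14.2 CPM in T cells, a log2 difference of 2.45 ± 0.36 (adjusted p = 0.00157, edgeR). Mrpl17, with a bacterial counterpart near the exit of the peptide tunnel, had 88.8, 80.2 and 81.8 CPM in B16F10 and 9.43 and 16.6 CPM in T cells, a log2 difference of 2.42. All B16F10 libraries lay well above both T cell libraries in these 3 genes.

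Mrpl12 had 108, 93.3 and 98.8 CPM in B16F10 and 13.3 and 29.8 CPM in T cells, a log2 difference of 1.94 (adjusted p = 0.00552, edgeR). Mrpl27, whose bacterial counterpart reaches the peptidyl transferase centre, had 39.1, 32.8 and 32.4 CPM in B16F10 and 9.63 and 8.27 CPM in T cells, a log2 difference of 1.71. Mrpl35 had 60.3, 56.7 and 49.8 CPM in B16F10 and 12.6 and 16.8 CPM in T cells, a log2 difference of 1.66. In Mrpl27 the higher T cell library was replicate 1, unlike in most members.

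Mrps25 and Mrpl19 were also among the 8 highest, with log2 differences of 2.71 and 2.23. Mrps25 had 98.9, 89.4 and 86.9 CPM in B16F10 and 11.3 and 12.3 CPM in T cells. Mrpl19 had 106, 99.4 and 103 CPM in B16F10 and 14.1 and 22.5 CPM in T cells. Both share exon bases with other genes, Mrps25 69.8% and Mrpl19 36.0%. The largest overlap was with a gene on the other strand, Nr2c2 for Mrps25 and Gcfc2 for Mrpl19. Since the strand setting of the counting is not given, reads of the pairs cannot be told apart. In all, 10 members share at least 20% of their exon bases with other genes.

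The 2 members lower in B16F10 were Mrpl24 and Mrpl9, both large-subunit proteins with bacterial counterparts. Mrpl24 had 56.4, 45.4 and 47.0 CPM in B16F10 and 108 and 88.2 CPM in T cells, a log2 difference of -1.22 ± 0.16 (SE, adjusted p = 0.000959, edgeR). It shares 26.3% of its exon bases with other genes, and the largest overlap is with Rrnad1 on the other strand. Mrpl9 had 56.8, 47.7 and 48.6 CPM in B16F10 and 65.6 and 164 CPM in T cells, a log2 difference of -1.44 ± 0.40 (adjusted p = 0.0189, edgeR). The T cell libraries of Mrpl9 differed by more than the nearer of them differed from B16F10. In T cells the order of levels was different: Mrpl34 came first with 145 ± 15.7 TPM (SD, n = 2), followed by Mrpl24 with 133 ± 45.7 TPM and Mrpl9 with 120 ± 51.4 TPM, and these do not differ beyond their spread. Mrpl12, first in untreated B16F10, was number 28 in T cells, with 40.2 ± 14.2 TPM.

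**Figure D4:**
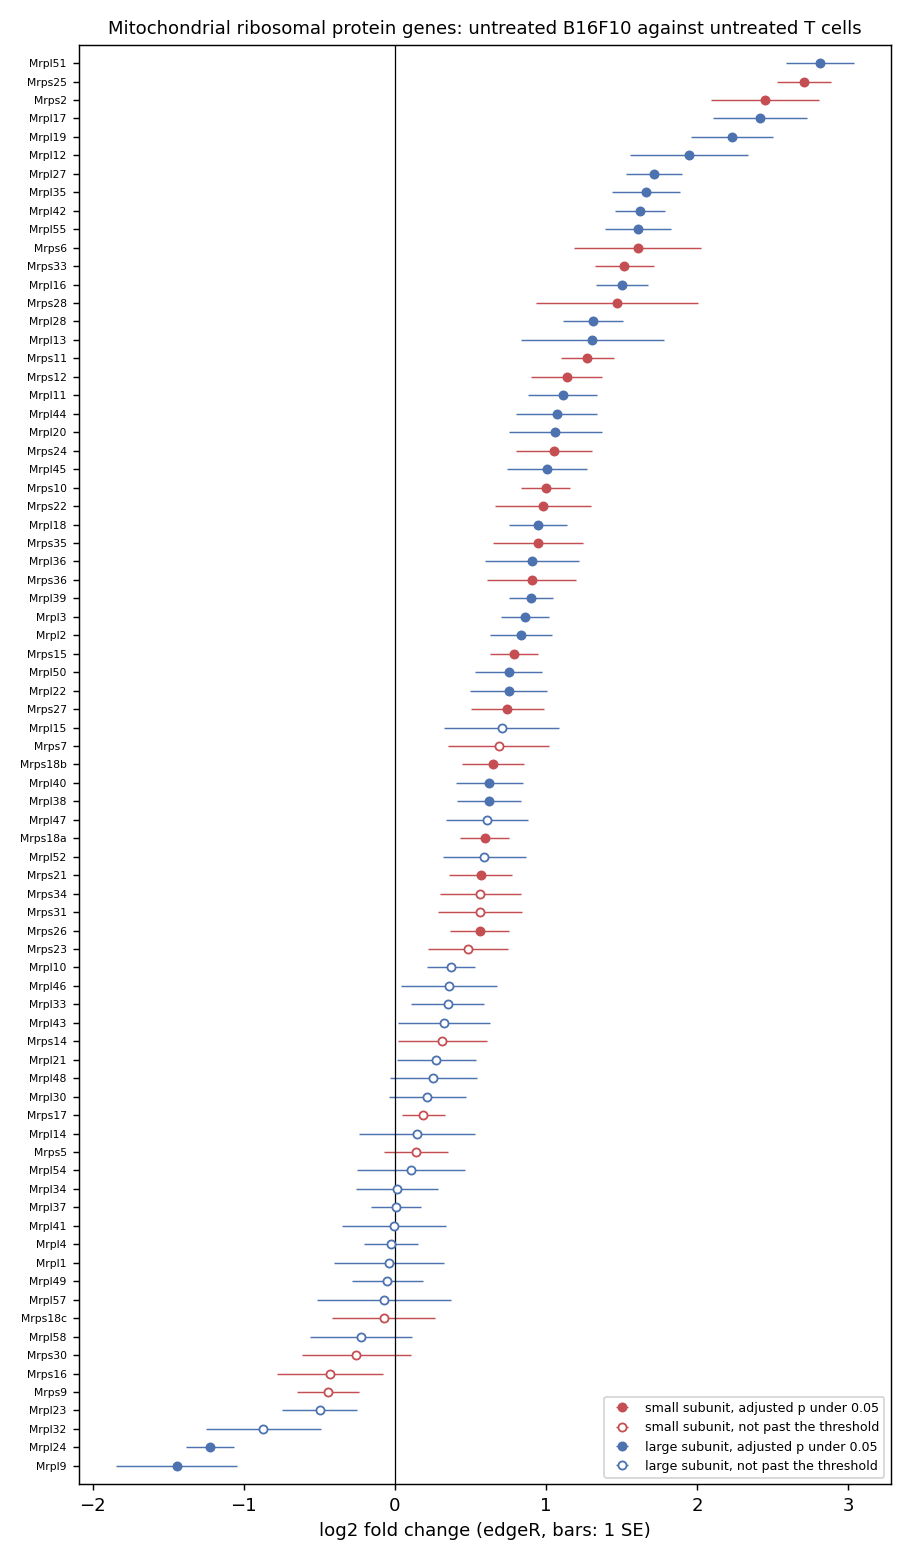
Log2 fold change of the 77 tested members, untreated B16F10 over untreated T cells (x axis), ranked down the page, with bars of 1 SE from edgeR; colour gives the subunit by symbol and filled points passed an adjusted p of 0.05. The points run from 2.81 for Mrpl51 to -1.44 for Mrpl9.

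Of the Mrps18 paralogues, Mrps18a, at 0.59 ± 0.16 (log2, SE), and Mrps18b, at 0.65 ± 0.21, were higher in B16F10 (adjusted p = 0.0173 and 0.0297, edgeR). Both calls were lost without any 1 of the B16F10 libraries, with adjusted p up to 0.137 and 0.188 (edgeR). Mrps18c, at -0.07 ± 0.34, did not pass, and the paralogues were not tested against each other. Mrps18c had 12.6, 10.7 and 8.87 CPM in B16F10 and 6.81 and 12 CPM in T cells, which overlap. Mrps30, at -0.25, did not pass either, with 29.6, 25.1 and 24.3 CPM in B16F10 and 16.6 and 35.5 CPM in T cells. Mrps36 was higher in B16F10, with 25.8, 26.2 and 24.9 CPM there and 8.41 and 14.4 CPM in T cells (log2 0.90, adjusted p = 0.0323, edgeR). Its call was also lost without any 1 of the B16F10 libraries, with an adjusted p up to 0.150 (edgeR).

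The sums by subunit differed in the same direction. Small-subunit genes reached 2191, 2024 and 2019 TPM in B16F10 and 799 and 905 TPM in T cells, and large-subunit genes 4547, 4122 and 4176 TPM in B16F10 and 1918 and 2182 TPM in T cells. The ratio of large to small was 2.06 ± 0.0202 in B16F10 (SD, n = 3) and 2.41 ± 0.00713 in T cells (SD, n = 2), with no overlap. TPM values divide by all transcripts of a library, mitochondrial ones included.

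**Figure D5:**
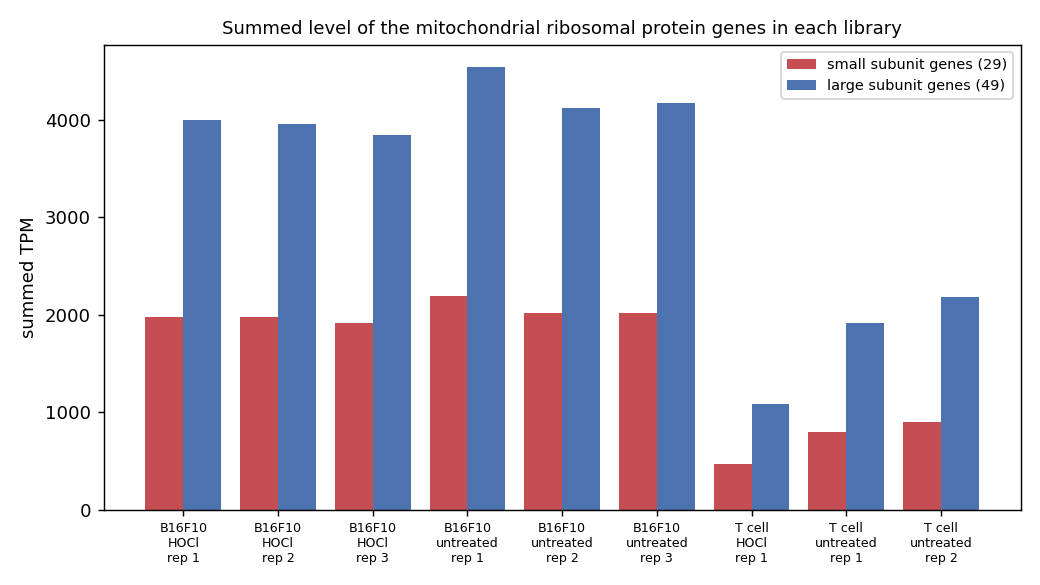
Summed transcripts per M (y axis, from 0) of the 29 small-subunit and 49 large-subunit genes in each of the 9 libraries, HOCl left of untreated within each cell type. Within each subunit, the B16F10 HOCl bars lie below the untreated B16F10 ones, and all T cell bars lie below those of B16F10.

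Beside the members, 54 of 80 nuclear respiratory chain genes were higher in B16F10 and 4 lower, with a median of 0.98. Ndufa4 had 465 ± 42.9 CPM in B16F10 (SD, n = 3) and 41.5 ± 4.84 CPM in T cells (SD, n = 2), a log2 difference of 3.24, and Sdhb of complex II was at 2.79. Cytosolic ribosomal protein genes went the other way: 75 of 78 were lower in B16F10 and 0 higher, with a median of -1.79. DESeq2 called 76 lower and 0 higher, and edgeR had 76 lower and 0 higher at an unadjusted p under 0.05. Rps27 had 176 ± 17.6 CPM in B16F10 and 2460 ± 1249 CPM in T cells, a log2 difference of -4.08. Transcripts of mitochondrial DNA were lower in B16F10 as well, 11 of 13 messenger RNAs, with a median of -1.57, and both ribosomal RNAs, mt-Rnr1 at -2.63 and mt-Rnr2 at -1.94. Of the assembly factors 12 were higher, such as Gtpbp10 at 1.98 and Fastkd2 at 1.78, and 6 lower, such as Mettl17 at -2.28 and Nsun4 at -1.51. Of the translation factors 7 were higher, Gfm1 and Lrpprc among them at 1.66 and 1.27, and 3 lower, Mtif3 and Gfm2 among them at -1.20 and -0.90.

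The T cell HOCl library has no replicate and was not tested. Its members summed to 1901 CPM, between the untreated T cell libraries at 1728 and 2599 CPM. It had counts in 44225 genes, against 25616 and 22855 in the untreated libraries. CPM divides by all gene counts, and transcripts of mitochondrial DNA took 37.4% of them here, against 1.55% and 2.11%. The sum and the places of members depend on that share, and no such places are given for all genes here. In 26 members the library lay above both untreated libraries, in 28 below both and in the other 23 between them. Its ratio of large to small subunit sums was 2.29, against 2.40 and 2.41 in T cells without HOCl and 2.04 to 2.08 in untreated B16F10. Mrps2 had 31.5 CPM there, against 7.03 and 14.2 CPM in untreated T cells, and Mrpl51 73.7 CPM, against 19.6 and 26.0 CPM. Mrps9 had 19.5 CPM there, against 51.5 and 70.5 CPM in untreated T cells. Melanocyte markers stood at 6712 CPM in this library and at 25.6 and 101 CPM in the untreated ones, and the part of this in the member values was not tested. A gene without a count in it could stand at up to 0.234 CPM (3 counts), against 0.0489 to 0.0654 CPM in the other libraries, which covers counting error only.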

How the data were processed

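RNA of 9 libraries was sequenced: B16F10 HOCl (3), B16F10 untreated (3), T cell HOCl (1) and T cell untreated (2), grouped by their titles. The authors deposited a raw read count for each gene, without normalisation. The submitters' processing notes name STAR 2.7.1a, featureCounts 1.6.0, DESeq2 1.22.2 and FastQC 0.11.8, and mm10 as the genome build. The sources used here do not give the annotation release, the strand setting or how multi-mapping reads were treated. The authors' deposited tables hold log2 fold changes and adjusted p-values of their own comparisons. They were used for the symbols and, for B16F10, to set calls side by side, with signs as deposited, since their groups are not named by treatment.

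Each comparison was fitted on all genes with edgeR 4.0.16 (R 4.3.3): filterByExpr, TMM scaling, a robust quasi-likelihood F test and Benjamini-Hochberg adjustment, with a threshold of 0.05. SE is the log2 fold change over the square root of F. The script was tested on simulated data. CPM is per M gene counts of the library, and TPM uses the union of GENCODE M21 exons. The HOCl and the cell type comparison share the untreated B16F10 libraries.

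Members and lists were chosen with earlier results of these data known. Named members were, per comparison, up to 8 called in each direction with the largest changes, the 3 highest and 3 lowest by TPM in untreated B16F10, the Mrps18 paralogues, Mrps30, Mrps36 and Mrpl12. Each list gave up to 2 called genes per direction by adjusted p. Others named were chosen after their values were seen.

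Alternatives were DESeq2 1.42.0 and its size factors, no TMM, no filter, a filter of 1 CPM in 2 libraries and 50 mean counts, glmTreat at 1.5-fold, 1 fit of all 9 libraries, the replicate number as a block, each library left out, and other ways to sum the subunits.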

Additional observations from a re-analysis of the deposited data

Results flagged for a closer look

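In 15 of the 77 members tested every HOCl library of B16F10 lay below every untreated one, while the single T cell HOCl library lay above both untreated T cell libraries. The same count over all genes tested was not made, so the 15 cannot be set against genes at large. The difference between the cell types was not tested. The values are given for the 9 of these 15 members that the rule for named members covers. In that T cell library Mrpl18 had 26.4 CPM, Mrps12 19.8 CPM, Mrpl55 12.5 CPM, Mrpl42 40.6 CPM and Mrpl20 28.6 CPM. Mrpl51 had 73.7 CPM, Mrpl17 33.2 CPM, Mrpl27 13.0 CPM and Mrps36 21.6 CPM. For Mrpl18 the untreated T cell libraries had 21.8 and 23.0 CPM, and for Mrpl51 19.6 and 26.0 CPM. Melanocyte markers summed to 6712 CPM in the T cell HOCl library, against 25.6 and 101 CPM in the untreated T cell libraries. By the edgeR test, all 9 were among the 42 of 77 members higher in untreated B16F10 than in untreated T cells. Mrpl51, Mrpl17 and Mrpl27 were named for that very difference, so their place among the 42 was fixed by the choice. The rest of the 15 are not listed here. The part of melanocyte transcripts in these values was not tested.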

How the results depend on the processing

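In B16F10, counts of members that fell or rose became 0 in the fit of all 9 libraries and against a 1.5-fold change, for both subunits and for the 7 lists of mitochondrial translation pooled (17 rose and 9 fell in the fit reported). Of all genes tested, 11 were called higher and 26 lower in the fit of all 9 libraries. Against a 1.5-fold change these counts were 28 and 45. With 1 library left out, 10 to 31 members fell and 1 to 3 rose; small-subunit genes gave 4 to 10 and 1 to 2, large-subunit genes 6 to 21 and 0 to 1, and the pooled lists 10 to 23 that rose and 5 to 16 that fell. Without a filter 26 large-subunit genes and 16 of the pooled lists fell. The median log2 fold change of members lay between -0.19 and -0.09 with 1 library left out. Shares of all genes called in those fits are not given here.

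Between the cell types, 23 members were higher against a 1.5-fold change (small 8, large 15), and 26 under the stricter filter (small 9 higher and 1 lower). Against a 1.5-fold change 2 members were lower, and of all 18352 genes tested 5628 were higher and 5455 lower. With 1 library left out, 18 to 70 members were higher and 1 to 15 lower, small-subunit genes 5 to 27 and 0 to 4, and large-subunit genes 13 to 43 and 1 to 11. The medians ran from 0.40 to 1.04 for members, 0.51 to 1.10 for the small and 0.33 to 1.03 for the large subunit. The fits without a T cell library assume that the lone one varies like B16F10. Shares of all genes called with 1 library left out are not given here. Mrps30 and Mrps18c changed sign, to 0.53 and 0.52 without T cell replicate 2, against -0.72 and -0.45 without T cell replicate 1.

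The ratio of large to small subunit sums was 1.91 (HOCl), 1.99 (untreated) and 2.11 (untreated T cells) from CPM, 2.17, 2.23 and 2.63 with genes placed by their seat in the ribosome, and 1.71, 1.75 and 1.91 with ribosomal proteins of other symbols added. With the length of the longest coding transcript, an alternative chosen after seeing the data, it was 2.09 in untreated B16F10. The order of the 3 groups held in all of these. The cause of each shift was not tested.

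Whether replicate numbers pair the libraries is not stated in the sources used here. Same-numbered deviations correlated at 0.035, -0.0035 and 0.0015 in B16F10 and at -0.139 and -0.130 between the cell types. Values from so few libraries cannot decide it, and the deviations of the 2 T cell libraries mirror each other by construction. With the number as a replicate block, 36 members fell in B16F10, 26 of them of the large subunit. Between the cell types 28 members were higher, 11 of them of the small subunit, and the pooled lists gave 18 higher and 17 lower. Of the values of single genes, 405 kept direction and side of the threshold, 49 lost it, 11 gained it and 5 moved. In T cells 2 libraries limit the precision.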

Other observations

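Some genes start head to head with a member within 1000 bases. Of the 8 members that fell in B16F10 HOCl and have a tested neighbour of this kind, 1 had a neighbour that also fell, Mrpl51 with Ncapd2 (edgeR, the same fit). Among the 31 tested neighbours of members, 4 fell and 6 rose, or 12.9% and 19.4%. Of all genes tested 13.5% fell and 14.7% rose, and the 1 of 8 above is 12.5%. Mrps18b, at a log2 fold change of 0.14 that did not pass, starts 45 bases from Ppp1r10, which rose by 0.56 (adjusted p = 9.7e-06, edgeR). Mrpl50, at -0.02, starts 83 bases from Zfp189, which rose by 0.90 (adjusted p = 9.6e-05, edgeR). Between the cell types both neighbours were lower in B16F10, Ppp1r10 at -0.73 and Zfp189 at -1.13, while Mrps18b and Mrpl50 were higher, at 0.65 and 0.75. The calls of Mrps18b and Mrpl50 were lost without any 1 of the B16F10 libraries. These pairs were chosen after their values were seen.

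Members with ETS letters in the promoter window had a median log2 fold change of -0.21 under HOCl and 10 of 23 tested fell, against -0.14 and 15 of 45 without them. With the NRF1 core the median was -0.05 and 1 of 8 fell, against -0.18 and 24 of 60 without it. These are descriptions with no test.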
